A study of Mus musculus with 48 samples.

Results

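The features described here are the 65 rows of the count table, of 32377 in all, whose level was at least doubled in Bmal1-KO cells. They were chosen by pooling the counts of the 24 wild-type (WT) libraries and of the 24 Bmal1-KO (KO) libraries and expressing each row as counts per 1000000 counts of its pool (CPM). A row was kept when it had at least 100 pooled KO counts and a KO level at least 2 times the WT level. Of the 9029 rows with at least 100 pooled KO counts, 67 (0.742%) met that ratio. A pair of these was left out by the choice of rows, 1 because it was among the 100 rows of highest mean share of counts and 1 by its row number, which left 65. The difference between KO and WT chose the members, so it is described below with no test, and the tests concern differences among times. The choice set no condition on time, but pooled raw counts give the deeper libraries more weight, so it is not free of the time courses.

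All cells were AML12, an immortalised line of mouse hepatocytes, and total RNA of whole cultures was turned into libraries with Smart-seq3, which copies full-length transcripts from little input. In such bulk libraries, more cells with a transcript and more of it per cell cannot be told apart. WT cells are labelled as wild-type controls and KO cells as Bmal1-KO. The labels used here do not say how the deletion was made or whether the KO cells came from 1 clone. Both genotypes were grown to near confluence in medium with fetal bovine serum, insulin-transferrin-selenium and dexamethasone, a synthetic glucocorticoid, and both received a synchronising pulse of dexamethasone of 1 h. Titles carry the numbers 18, 24, 30, 36, 42 and 48, taken here as hours, with 4 libraries per genotype and time. Whether the 4 were separate cultures is not stated, and p-values cover no more than their spread, which may be technical. Library names carry the number 16 for WT at 18 to 30 h, 17 for WT at 36 to 48 h, 18 for KO at 18 to 30 h and 19 for KO at 36 to 48 h. Genotype and library number therefore cannot be told apart, and neither can the step from 30 to 36 h.

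BMAL1 is the transcription factor that pairs with CLOCK, binds E-box elements and drives a daily wave of target genes, among them the Per and Cry repressors and the nuclear receptors NR1D1 and NR1D2. The Per and Cry proteins inhibit BMAL1-CLOCK, and the NR1D receptors repress a second set of genes, including Bmal1 itself. Loss of BMAL1 is therefore known both to lower genes that the complex drives and to raise genes that its repressor targets hold down, and a glucocorticoid pulse is a standard way to set cultured cells to a common phase. The rows carry no gene names or identifiers, so none of the members can be assigned to these roles, no sequence can be given, and neither the hepatocyte identity of the cells nor the loss of Bmal1 could be checked on named genes. The members are numbered by their pooled KO level, member 1 being the highest, and CPM is not scaled by transcript length. Member 1 is row 29669 and member 2 is row 20914 of the table.

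The shallowest library had 72398 counts, the deepest 795991 and the median 387536, and 3 libraries held under 100000 counts. These were WT 18 h replicate 2, WT 24 h replicate 2 and KO 48 h replicate 3. Most members were of low to middle abundance, so depth limits what a single library shows. The median member had 352 pooled KO counts and 195 pooled WT counts. In 14 members at least 1 KO library had no count, and in 39 members at least 1 WT library had none.

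The doubled features were mostly just above the ratio that chose them. The ratio of pooled KO to pooled WT level had a median of 2.24, with quartiles of 2.08 and 2.65. Of the 65 members, 47 lay from 2 to under 2.5, 7 from 2.5 to under 3, 6 from 3 to under 4 and 5 at 4 or more. The pooled KO level ranged from 11.3 to 996.6 CPM with a median of 39.9, and the pooled WT level from 0.68 to 432.8 CPM with a median of 18.9. Only 12 members reached 100 CPM in KO, and 14 were under 20 CPM. The largest contribution of a single KO library to a member's KO counts was 14.0%. For WT counts it was 28.6%, in member 43. The ratio rests on both, and when 1 library was left out 57 to 65 of the 65 members were kept.

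**Figure D1:**
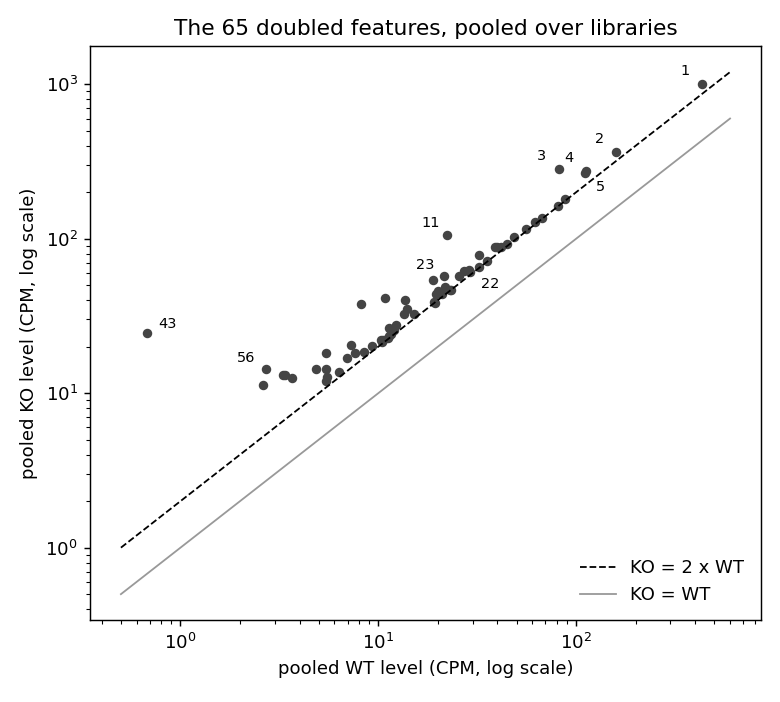
Pooled KO level against pooled WT level of the 65 members in CPM, both axes on a log scale, with 1 point per member and the numbers of 10 members. Most points lie along the dashed line at 2 times the WT level, and member 43 stands far above it at 24.5 CPM in KO against 0.68 CPM in WT.

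At the edge of the choice, member 28 had a ratio of 2.0037 (240 WT and 411 KO counts) and member 35 a ratio of 2.0049 (199 and 341 counts). The nearest rows outside had ratios of 1.9997 (110 and 188 counts) and 1.9973 (297 and 507 counts). Below the count minimum, the row with the most KO counts at a doubled ratio had 87 KO counts and a ratio of 2.26. Rows on either side of the edge thus differed by a fraction of a percent, and membership near it depends on the scaling. Scaling the pools with TMM factors, which averaged 1.026 in WT and 0.975 in KO libraries, gave 99 members, all 65 of these among them. Averaging the CPM of the libraries with equal weight gave 65 rows, of which 49 were shared with the 65.

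Members 1 to 5 had the highest KO levels. Member 1 had a lowest, median and highest CPM of 325.2, 430.8 and 577.7 in WT and of 275.3, 1022 and 1295 in KO. Its KO libraries were above every WT library except for KO 48 h replicate 3, one of the 3 shallow libraries, and without that library its lowest KO value was 654.7 CPM. Its log2 change was 1.22 (SE 0.06) in the fit across all features.

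Member 2 overlapped more between the genotypes. It ranged from 85.6 to 436.4 CPM in WT with a median of 164.8, and from 91.8 to 570.1 CPM in KO with a median of 367.8. Only 3 KO libraries were above the highest WT library, which was the shallow WT 18 h replicate 2. The lowest KO library was again KO 48 h replicate 3, and without it the lowest was 247.1 CPM. Its log2 change was 1.19 (SE 0.07), and with libraries of equal weight its log2 ratio was 0.99 in place of 1.18 from the pools, under the doubling that chose it.

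Members 3, 4 and 5 were higher in all 24 KO libraries than in any WT library, the only members of which this was true. This describes the difference that chose the members, and the same count was not made over all rows. Member 3 had a lowest, median and highest CPM of 13.8, 77.3 and 122.2 in WT and of 182.2, 292.5 and 361.6 in KO, a log2 change of 1.85 (SE 0.08). Member 4 ranged from 82.9 to 192.5 CPM in WT with a median of 111.6, and from 196.8 to 369.8 CPM in KO with a median of 275.9, a log2 change of 1.33 (SE 0.06). Member 5 ranged from 72.9 to 158.5 CPM in WT with a median of 117.4, and from 179.04 to 331.4 CPM in KO with a median of 268.5, a log2 change of 1.31 (SE 0.07). None of these 3 members was called in any of the 11 tests on time described below. Nearest to a call was member 5 for differences among the WT times (adjusted p = 0.0542, edgeR).

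In the other members the genotypes overlapped library by library. The median member had 13 of 24 KO libraries above its highest WT library and 23 of 24 above its WT median. In 28 members every KO library was above the WT median. These overlaps were not counted over the other rows of the table. The coefficient of variation over the 24 libraries, which holds differences between times as well, had a median of 0.355 in KO and 0.553 in WT, where counts were lower. Within groups the members were about as variable as other features: the fitted biological coefficient of variation had a median of 0.127 over the 55 members tested and of 0.113 over all 8617 features tested.

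Of the 3 largest ratios, those of members 43 and 56 belonged to features of low WT level. Member 43 had the highest. It had no count in 18 of 24 WT libraries and never more than 2 counts in one, with 7 counts in all, while every KO library had at least 1 and all had 216 together. Its lowest, median and highest CPM were 0, 0 and 5.85 in WT and 3.64, 22.7 and 53.1 in KO, and 22 KO libraries were above the highest WT library. The pooled ratio was 36.1 with an exact 95% interval of 17.2 to 90.9, which covers counting error only. The same counts chose the members, and these were picked for the highest ratios. Neither this interval nor those below allow for that choice. Member 56 followed with 28 WT and 127 KO counts and a ratio of 5.31 (3.50 to 8.30), from 0 to 12.8 CPM in WT and from 0 to 29.4 CPM in KO. It was among the 10 members that did not pass the filter on low counts and were not tested. Member 11 came next, at a WT level above the members' median, with 229 WT and 939 KO counts and a ratio of 4.80 (4.15 to 5.57).

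Members were above WT at nearly every time. The pooled ratio was over 1 at all 6 times in 64 of the 65 members, and at least 2 at all 6 times in 12. The exception was member 26, named after its values were seen, with a ratio of 0.865 at 18 h. At single times the number of members at least doubled was 31, 39 and 46 at the 3 early times and 43, 58 and 59 at the 3 late times. The median ratio was 1.96, 2.07 and 2.33 at 18, 24 and 30 h and 2.25, 2.42 and 2.79 at 36, 42 and 48 h. These values describe the difference that chose the members.

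The gap between KO and WT was wider in the later times for most members. Pooled over 18 to 30 h the median ratio was 2.09, and pooled over 36 to 48 h it was 2.51. The late ratio was higher than the early one in 48 of 65 members (73.85%), against 47.9% of the 8863 other rows with at least 100 pooled KO counts. Both ratios are parts of the pooled ratio that chose the members, and the pools weigh the times by depth, so the count is a description. In 34 members the early and the late ratio were both at least 2, in 25 only the late one and in 6 only the early one. The count of 48 was 50 with TMM scaling, 50 without the 3 shallow libraries and 43 to 51 when any library or replicate number was left out. Early and late times have different library numbers in each genotype, so time and library number cannot be told apart here.

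**Figure D2:**
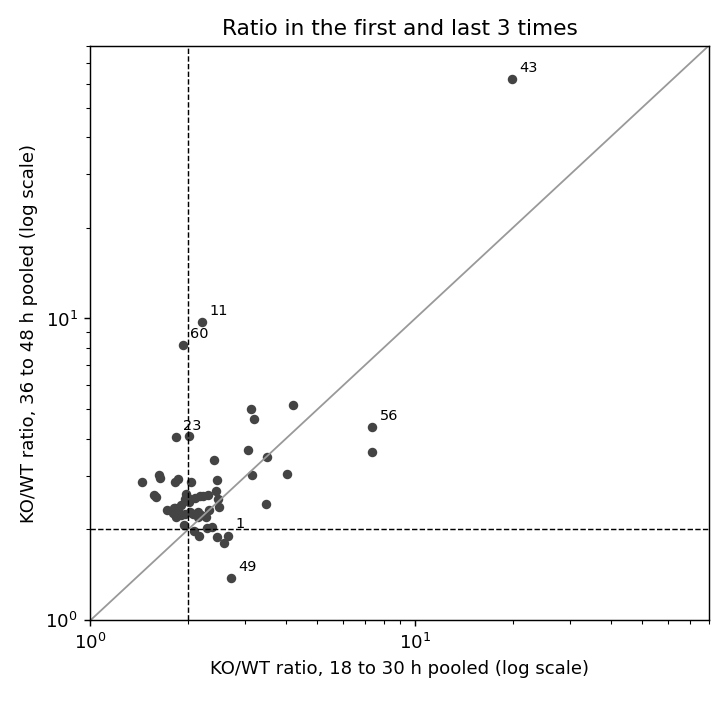
Ratio of KO to WT level pooled over 36 to 48 h against the ratio pooled over 18 to 30 h, 1 point per member, both axes on a log scale, with the line of equality and dashed lines at a ratio of 2. Of the 65 points 48 lie above the line of equality, with members 11, 60 and 43 farthest above it, and member 49 has the lowest late ratio, 1.38.

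Time within KO cells was tested with an edgeR quasi-likelihood fit of the 12 group means to all 8617 features that passed the filter, with Benjamini-Hochberg adjustment over them, and a call means an adjusted p under 0.05. The same fit gave every test on time below except the waves. Differences among the 6 KO times were called for 9 of the 55 members tested, while 0.963% of all tested features were called. These were members 1, 2, 11, 23, 28, 33, 43, 49 and 51. DESeq2 called 7 members, and without the 3 shallow libraries edgeR called 9.

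Member 11 had the smallest p over time in KO. Its mean was 85.2 ± 16.9, 52.8 ± 12.7 and 63.5 ± 24.01 CPM at 18, 24 and 30 h and 179.6 ± 41.8, 134.6 ± 41.2 and 143.7 ± 47.3 CPM at 36, 42 and 48 h (SD, n = 4). The lowest KO value at 36 h was 142.6 CPM and the highest from 18 to 30 h was 103.6 CPM, although 1 library at 48 h was at 93.6 CPM. In WT it was at 45.9 ± 18.3, 21.7 ± 11.8 and 20.6 ± 12.3 CPM and then at 22.6 ± 11.6, 18.5 ± 3.71 and 9.98 ± 7.71 CPM (SD, n = 4). Both genotypes were lower at the last than at the first time of each library number. The rise in KO lay between 30 and 36 h, where the library number changes. The differences among the 6 times were called in KO (adjusted p = 1.41e-06) and in WT (adjusted p = 0.00654), the latter not without WT 18 h replicate 1 (adjusted p = 0.111; edgeR). Within library numbers neither time in KO (adjusted p = 0.684) nor the interaction (0.9998; edgeR) was called.

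Members 33, 51 and 43 were also higher in the later KO libraries. Member 51 was at 17.8 ± 8.21, 9.996 ± 7.58 and 5.67 ± 3.89 CPM from 18 to 30 h and at 32.2 ± 12.8, 28.7 ± 6.89 and 33.99 ± 9.55 CPM from 36 to 48 h in KO (SD, n = 4). Member 33 was at 24.7 ± 11.3 to 32.03 ± 9.09 CPM from 18 to 30 h and rose to 71.04 ± 18.0 CPM at 36 h before 58.4 ± 4.19 and 36.1 ± 20.2 CPM at 42 and 48 h in KO. Member 43 was at 20.3 ± 2.07, 20.6 ± 4.33 and 7.81 ± 6.49 CPM and then at 28.3 ± 9.43, 31.8 ± 7.38 and 39.6 ± 9.67 CPM in KO. The call for member 43 (adjusted p = 0.0180) ended when any 1 of 6 KO libraries was left out, replicates 1 to 3 at 30 h, 2 at 42 h and 1 and 4 at 48 h (adjusted p from 0.0501 to 0.0841; edgeR).

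Members 1 and 2 were lower at 48 h than at 18 h in KO. Member 1 was at 1172 ± 95.5, 1074 ± 95.1 and 1225 ± 55.8 CPM at the 3 early times, then 1003 ± 196.7, 854.4 ± 110.1 and 616.9 ± 234 CPM at 36, 42 and 48 h (SD, n = 4; adjusted p = 9.97e-04, edgeR). Without the shallow KO 48 h replicate 3 its mean at 48 h was 730.8 ± 65.9 CPM (SD, n = 3), and without all 3 shallow libraries the adjusted p was 2.58e-04. Member 2 was at 493.1 ± 88.7, 405.8 ± 26.5 and 324.6 ± 63.0 CPM, and then at 315.1 ± 64.2, 365.0 ± 11.9 and 253.5 ± 118.9 CPM (SD, n = 4). Without the shallow library its mean at 48 h was 307.4 ± 61.4 CPM (SD, n = 3), so the fall lay mainly in the early times. Its call (adjusted p = 0.0169, edgeR) was not made without any 1 of KO 18 h replicates 1 to 3 or KO 48 h replicate 2 (adjusted p from 0.0540 to 0.0846). Member 23 (adjusted p = 0.0153, edgeR) had its highest KO means at 18 h and 42 h, 73.7 ± 21.2 and 73.6 ± 13.9 CPM, and its lowest at 30 h, 35.3 ± 3.51 CPM (SD, n = 4). Its call was not made without KO 30 h replicate 4 (adjusted p = 0.0898) or KO 42 h replicate 1 (0.0569).

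The calls of members 28 and 49 also rested on single libraries. That of member 28 (adjusted p = 0.0215) ended without any 1 of KO 30 h replicates 2 or 3 or KO 42 h replicate 4 (0.0704 to 0.0983). That of member 49 (adjusted p = 0.0294) ended without any 1 of 9 KO libraries, namely 24 h replicates 1 to 3, 30 h replicate 2, 42 h replicates 1 and 2, and 48 h replicates 1, 2 and 4 (0.0528 to 0.0841; edgeR).

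**Figure D3:**
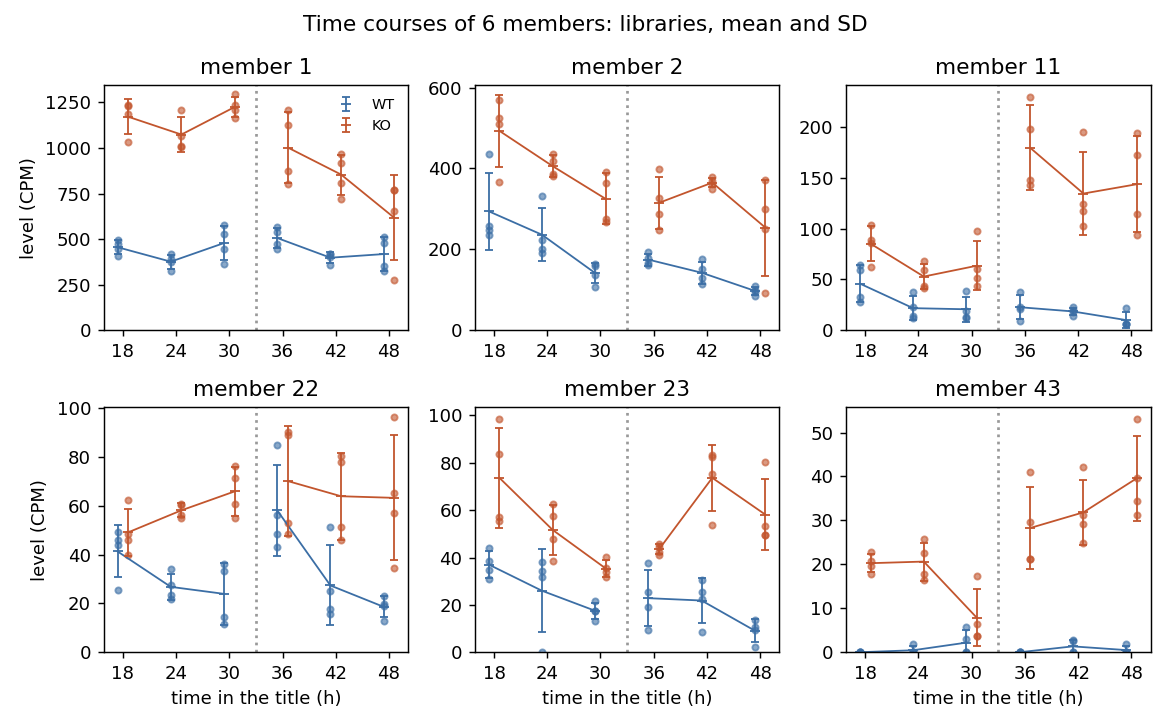
CPM of members 1, 2, 11, 22, 23 and 43 against the time in the title in hours, WT in blue and KO in orange, with points for libraries, means with SD for the 4 libraries of a group and lines joining times of the same library number. The dotted line marks the change of library number between 30 and 36 h, across which member 11 rises in KO from 63.5 to 179.6 CPM.

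Time within WT cells was called for 6 of the 55 members tested, members 2, 11, 12, 13, 22 and 23, while 4.77% of all tested features were called. Member 2 had the smallest p (adjusted p = 2.87e-07, edgeR) and fell in WT from 294.1 ± 95.2 CPM at 18 h through 236.2 ± 64.98, 141.3 ± 25.3, 174.6 ± 14.9 and 142.2 ± 27.5 CPM to 97.4 ± 10.1 CPM at 48 h (SD, n = 4). Member 22 (adjusted p = 0.00571, edgeR) fell within both library numbers, from 41.3 ± 10.7 CPM at 18 h to 23.9 ± 12.6 CPM at 30 h and from 58.2 ± 18.7 CPM at 36 h to 18.6 ± 4.29 CPM at 48 h in WT. In KO its means lay between 49.2 ± 9.51 and 70.2 ± 22.6 CPM, and time was not called there (adjusted p = 0.928). Member 23 went in WT from 37.03 ± 5.66 CPM at 18 h to 9.10 ± 4.82 CPM at 48 h (adjusted p = 0.00116, edgeR). The call of member 13 (adjusted p = 0.0276) ended without any 1 of 7 WT libraries, namely 18 h replicates 1 and 4, 24 h replicate 4, 30 h replicates 3 and 4, and 48 h replicates 2 and 4 (0.0563 to 0.0997; edgeR).

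The tests that stay within a library number called few members. Among 18, 24 and 30 h and among 36, 42 and 48 h, differences were called in WT for members 2 (adjusted p = 2.95e-04), 22 (0.00911) and 12 (0.0345), 3 of 55 where 1.44% of all features were called (edgeR). The call of member 12 ended without any 1 of 14 WT libraries (0.0501 to 0.109). These were 24 h replicates 1 and 3, 30 h replicates 3 and 4, all of 36 h, 42 h replicates 1, 3 and 4, and 48 h replicates 2 to 4. In WT the count became 6 without WT 30 h replicate 1 and 5 without the 3 shallow libraries. In KO none of the 55 members was called by edgeR or DESeq2, with 12 at an unadjusted p under 0.05 and 0.0464% of all features called, and 1 was called without WT 24 h replicate 2 and also without all 3 shallow libraries. Member 23 had the smallest p there (adjusted p = 0.0817, edgeR).

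A step between the means of the early and of the late times was called in KO for 8 of 55 members, 7 of them upward and 1 downward, while 2.17% of all features were called, 0.894% upward and 1.28% downward. The upward members were 11, 17, 28, 33, 43, 48 and 51 and the downward one was member 1. The step of member 51 was 1.50 on the log2 scale (SE 0.25, adjusted p = 1.21e-04), that of member 11 was 1.23 (SE 0.14, adjusted p = 8.45e-09) and that of member 1 was -0.47 (SE 0.09, adjusted p = 4.47e-04; edgeR). The calls of members 17 and 48 ended when any 1 of 22 and of 32 libraries, from both genotypes, was left out (adjusted p from 0.0504 to 0.155 and from 0.0501 to 0.134). DESeq2 called 6 members. Over the 55 members the median step in KO was 0.13, against -0.004 over all features tested.

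In WT the step was called for 5 of 55 members, 4 downward and 1 upward, with 4.51% of all features called, 2.77% downward and 1.74% upward. Members 2, 11, 14 and 23 went down, by log2 steps of -0.58 (SE 0.11), -0.83 (SE 0.25), -0.67 (SE 0.19) and -0.86 (SE 0.22), and member 33 went up by 0.95 (SE 0.28). Only member 2 was called when each single library was left out in turn. Without WT 36 h replicate 2 it was the only member called, and the others had adjusted p from 0.0577 for member 14 to 0.101 for member 23. The count was 3 without any 1 of WT replicate 1 at any time from 18 to 36 h, WT 42 h replicate 4 and WT 48 h replicate 3 (edgeR). Member 33 had nearly the same step in both genotypes, 0.98 (SE 0.18) in KO and 0.95 in WT.

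Whether the difference between genotypes changed with time was tested directly. The interaction over the 6 times was called for member 11 only (adjusted p = 8.77e-05, edgeR and also called by DESeq2), 1 of 55 members with 0.371% of all features called. The count was 2 without WT 18 h replicate 3 or WT 42 h replicate 2. The late minus early step differed between KO and WT for members 11, 1 and 23, 3 of 55 with 1.85% of all features called. It was positive for 2 of these and negative for 1, against 0.905% and 0.94% of all features. In member 11 the KO step exceeded the WT step by 2.06 on the log2 scale (SE 0.29, adjusted p = 4.95e-06), and in member 23 by 1.00 (SE 0.27, adjusted p = 0.0317). In member 1 it was lower by a difference of -0.49 (SE 0.13, adjusted p = 0.0224; edgeR). DESeq2 called 2 members.

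Only member 11 was called for the step difference without WT 36 h replicate 2 (adjusted p = 0.0580 for member 1 and 0.135 for member 23). The call of member 23 also ended without any 1 of WT replicate 1 at 18, 24 and 30 h, WT 42 h replicate 3, WT 48 h replicate 3 and KO 42 h replicate 1 (0.0503 to 0.0653). The step difference was positive in 46 of the 55 members tested, with a median of 0.25. Over all 8617 features tested it was positive in 4263, with a median of -0.004. The member count is a description for the same reason as the early and late ratios. Within library numbers the interaction called none of the 55 members and 0% of all features with edgeR, and no member with DESeq2. There 6 members had an unadjusted p under 0.05, and the smallest adjusted p was 0.959 for member 22.

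The mean summed level of the 65 members was lower at the last than at the first time of each library number in both genotypes. In WT it was 2685 ± 268.1, 2222 ± 202.1 and 2084 ± 275.1 CPM at 18, 24 and 30 h, and 2580.3 ± 208.4, 2126 ± 111.9 and 1814 ± 120.3 CPM at 36, 42 and 48 h (SD, n = 4). In KO it was 5550.1 ± 279.8, 5143 ± 235.2 and 4811 ± 181.4 CPM, and then 5542 ± 182.1, 5050.4 ± 162.5 and 4589 ± 718.02 CPM. Depth also differed between these times, and in WT the mean library total was 383492, 368570 and 430712 counts at 18, 24 and 30 h and 284466, 562396 and 552358 counts at 36, 42 and 48 h. In KO the mean library total was 332568, 458098 and 385230 counts and then 234398, 476910 and 319585 counts. The part of depth in the course was not tested. At 48 h in KO the shallow replicate 3 had 3534 CPM, and the other libraries of that group had 4940.2 ± 177.3 CPM (SD, n = 3). Without member 1 the KO means were 4378, 4069 and 3586 CPM, and then 4539, 4196 and 3972 CPM.

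Single members shared this course to a varying degree. In WT 41 of 65 members had lower means at 30 than at 18 h as well as at 48 than at 36 h, and in KO 33 members did. Of the 8863 other rows with at least 100 pooled KO counts, 30.5% did so in WT and 23.3% in KO. Mean depth was higher at 30 than at 18 h and at 48 than at 36 h in both genotypes. The pooled choice gives these times more weight, which favours rows that are low in WT and high in KO there. Both member counts are therefore no more than descriptions, and the part of this weight was not tested. The median level at 48 h was 0.711 of that at 36 h in WT and 0.840 in KO. The counts were 41 and 35 with TMM scaling, and 44 and 28 without the 3 shallow libraries. In each library number the first time also holds the earlier letters of the library names, so time and letter cannot be told apart, and their part in this course was not tested.

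**Figure D4:**
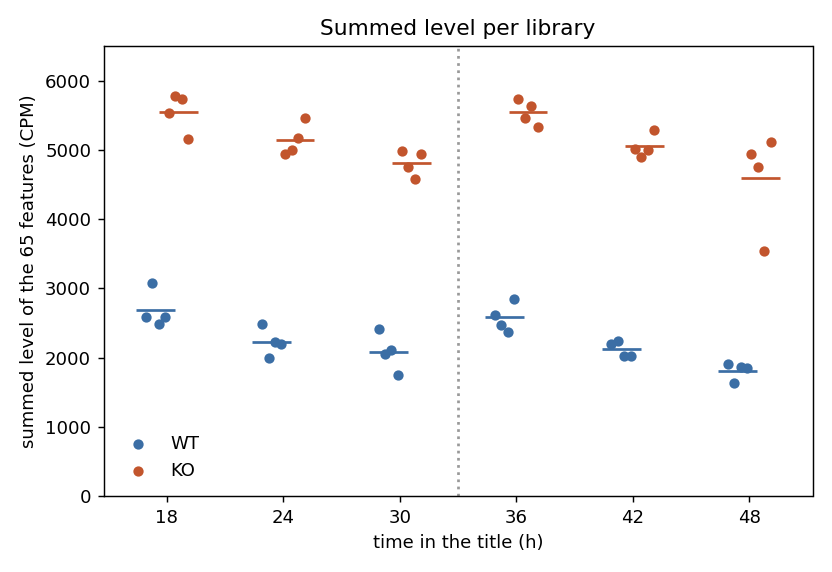
Summed CPM of the 65 members in each library against the time in the title in hours, with WT in blue, KO in orange and bars at the mean of the 4 libraries of a group. The dotted line marks the change of library number, and in each genotype the mean goes down on both sides of it, in WT from 2685 to 2084 CPM and from 2580.3 to 1814 CPM.

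Waves of 24 h were tested in a second edgeR fit, of cosine and sine terms per genotype. None of the 55 members was called in KO or in WT, while 0.0116% and 0.383% of all features were. At an unadjusted p under 0.05 there were 10 members in KO and 9 in WT, and DESeq2 called 1 member in each. In KO the smallest p was that of member 23 (adjusted p = 0.0914), with a fitted amplitude of 0.62 log2 units. In WT it was that of member 22 (adjusted p = 0.0823), with an amplitude of 0.60 and a fitted peak at 37.0 h. The WT count was 1 without any 1 of WT 24 h replicate 4 and WT 42 h replicates 3 and 4.

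Several of the most raised features stood close together in the table. The order of the rows is not explained in the sources used here, and no gene can be read from it. Of the 65 members, 5 (7.69%) had another member within 5 rows, against 2.20% of the 8863 other rows with at least 100 pooled KO counts. These 5 had a median ratio of 3.96, against 2.22 for the other 60, and all ranked from 1 to 12 by ratio. The ratio also chose the members, so this comparison is a description. The 5 were members 43, 56, 58, 60 and 61, with 7 to 50 pooled WT counts each, and of them only member 43 was tested. The 40 rows after each member were searched for other members. The stretch with the most spanned 33 rows and held members 11, 43, 60 and 61, which ranked 3, 1, 7 and 6 by ratio. It was picked from these data by a search that was not planned, so it is a description. Members 56 and 58, ranked 2 and 12, were 3 rows apart elsewhere.

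**Figure D5:**
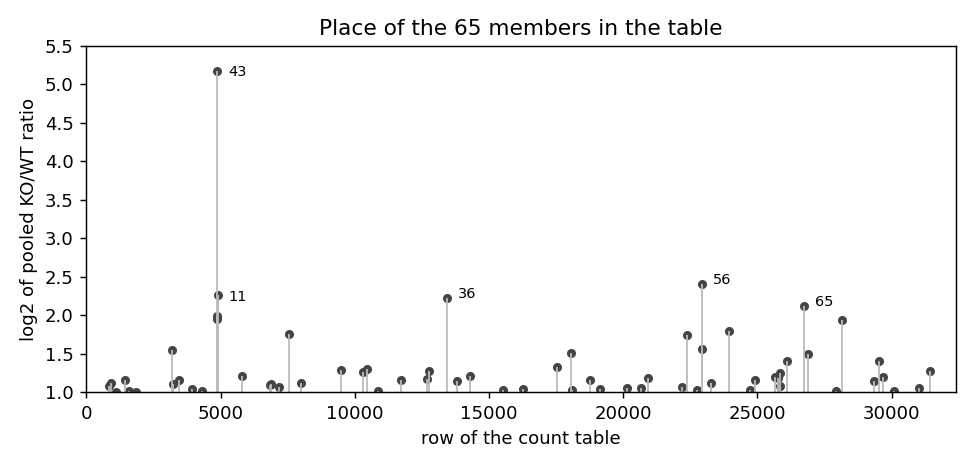
The log2 ratio of pooled KO to pooled WT level of each of the 65 members against its row in the count table, with a stem from 1, the doubling that chose the members. Members 43 and 11 and a pair near 2.0 lie in the same stretch of 33 rows, and most other members are below 1.5.

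In that stretch every row with at least 100 pooled KO counts was at least doubled, which for the 4 members follows from the rule. The minimum is on KO counts, so it favours rows high in KO. Besides the 4 members it held 1 such row, left out of the members because it was among the 100 most abundant rows. That row had a lowest, median and highest CPM of 282.4, 633.7 and 1123 in WT and of 1192, 1979 and 2834 in KO, and its pooled ratio was 2.91. No WT library reached the lowest KO library. Only 10 rows of the stretch had any count, and the others outside this group of 5 had at most 30 counts in either genotype. The one with the most went the other way, with 30 WT and 10 KO counts and a ratio of 0.39.

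All 4 members of the stretch had a higher ratio in the late than in the early times. Pooled over 18 to 30 h their ratios were 2.21, 19.9, 1.92 and 3.13 for members 11, 43, 60 and 61, and over 36 to 48 h they were 9.70, 62.0, 8.14 and 5.01. Members 60 and 61 were in neighbouring rows with 35 and 34 WT counts and 116 and 115 KO counts. Their counts were equal in 11 of 48 libraries and differed by up to 6, so they were not copies of one row. Over the 24 KO libraries the deviations of log2 CPM from the group means, with 10 CPM added, were correlated between pairs of the 4 members. The lowest value was -0.00, between members 60 and 61, and the highest was 0.56, between members 60 and 11. The other pairs lay from 0.15 to 0.35. Members 60 and 61 had at most 13 and 14 counts in a KO library, and the values are a description over libraries that share depth. Whether reads were shared between rows of the stretch was not tested.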

How the data were processed

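The table holds whole-number counts per row, which the authors deposited without gene names, and per the file headers they come from accepted, sorted and deduplicated alignments. STAR 2.5.4b and the mm10 (GRCm38) build are named in the submitters' processing notes. How reads were assigned to rows, with which annotation and whether by strand or by molecular identifier, is not given in the sources used here. The table has 180 value columns, and the 132 whose library name matches no sample were set aside.

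The members, tests and lists were chosen with earlier results of these data known. Levels are counts per 1000000 counts of a library (CPM). Tests used edgeR 4.0.16 in R 4.3.3, with TMM factors and the filterByExpr filter (minimum count 10, minimum total 15). The 8617 features that passed held 97.3% of the counts, and 55 of the 65 members passed. The 10 others had at most 127 pooled KO counts. All tests were two-sided, with a 24 h period for waves. A standard error is the log2 change divided by the square root of its F statistic. The fit was tested on simulated counts. Alternatives were DESeq2 1.42.0 by likelihood ratio tests, other size factors, no filter, a replicate block and left-out libraries, and those without the 3 shallow libraries were chosen after the data were seen, as were all alternatives for the early and late ratios and for the falls within library numbers. Described singly are members 1 to 5, the 3 of highest ratio, those at the edge of the choice and the smallest p in each test, and other members named with a call were named after their values were seen. The planned gene lists and cell type markers could not be looked up in unnamed rows.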

Additional observations from a re-analysis of the deposited data

Results flagged for a closer look

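The summed level and 10 members were looked at in each of the 12 groups, 132 sets in all. In 7 sets a single library lay far away, and chance alone gives about 1 in 20, or 6.6. WT 18 h replicate 2 had 436.4 CPM of member 2, against 236.2 to 256.7 CPM in the other libraries of that group. WT 48 h replicate 1 had 21.5 CPM of member 11, against 5.91 to 6.35 CPM. WT 24 h replicate 2 had 0 CPM of member 23, against 31.7 to 38.0 CPM, and KO 48 h replicate 3 had 80.3 CPM of it, against 49.4 to 53.1 CPM. Of these, WT 18 h replicate 2, WT 24 h replicate 2 and KO 48 h replicate 3 are the 3 shallow libraries.

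WT 24 h replicate 1 had 1.81 CPM of member 43 and 1.81 CPM of member 56, and WT 48 h replicate 4 had 1.97 CPM of member 43, where the rest of each group had 0. Such a value is a single count, and any count among zeros lies far away.

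The effect of genotype differed between times for member 11 (adjusted p = 8.77e-05 for the interaction over 6 times), and between early and late times for members 11 (4.95e-06), 1 (0.0224) and 23 (0.0317; edgeR, Benjamini-Hochberg). Early and late times have different library numbers.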

How the results depend on the processing

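The number of members was 99 with TMM-scaled pools. Without a filter on low counts, members called were 2 for the interaction over 6 times, 1 for KO times and 5 for WT times within library numbers, and 2 for KO and 1 for WT waves. Without the 3 shallow libraries they were 1 for KO and 5 for WT times within library numbers and 1 for each wave. DESeq2 called 1 for each wave. Other counts stayed within 1.5 times the reported ones under these settings and under DESeq2 size factors.

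With a replicate number or a single library left out, 2 to 10 members were called for KO times, 2 to 9 for WT times, 0 to 2 for the interaction, 0 to 1 for KO times and 1 to 6 for WT times within library numbers, and 0 for the interaction there. Steps were called for 4 to 11 in KO, 1 to 6 in WT and 1 to 3 for the difference, and waves for 0 in KO and 0 to 1 in WT. The number of members ranged from 56 to 84. When 1 library was left out, 57 to 65 of the 65 were kept, with at most 11 new rows. When a replicate number was left out, only 46 (without replicate 4) to 52 (without replicate 1) were kept. New rows then numbered from 6 without replicate 3 to 32 without replicate 1. The late ratio was the higher in 43 to 51 members, and falls within both library numbers were seen in 31 to 44 in WT and 25 to 37 in KO. The interaction of member 11 was lost only without replicate 4 (adjusted p = 0.0571, edgeR). Beyond the smaller number of samples, the cause was not tested.

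The replicate numbers paired the libraries weakly if at all. Deviations from group means correlated over 0.1 in 56 of 264 same-numbered pairs, with a median of 0.00, and in 152 of 792 other-numbered pairs. Between WT and KO libraries of the same letter and time, which share a replicate number, 8 of 24 pairs did, with a median of 0.04. Of 48 libraries, 15 correlated best with their own number. With the replicate number as a block, members called were 9 for KO times, 7 for WT times, 1 for the interaction, 0 for KO and 4 for WT times within library numbers, 7 for the KO step, 6 for the WT step and 3 for their difference. The log2 ratios of 10 members kept their sign under all 60 alternatives run and moved by more than their spread in 2. These were 0.99 for member 2 with libraries of equal weight and 4.80 for member 43 without replicate 3. The spread was the SD over the 4 single replicate numbers. This ratio chose the members, and each alternative reused most or all of the libraries. A change of sign was therefore barely possible, and the count is a description only. Depth limits the members under 20 CPM, whose libraries often hold only a few counts.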
